A study of Mus musculus with 18 samples.

Results

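Osteocytes are the cells that bone-forming osteoblasts become once they are buried in the matrix they lay down. The transcripts described here are those of Sost, Dmp1, Phex and Mepe, 4 genes used as osteocyte markers, looked up by gene name in the table of raw read counts. Sost, Dmp1 and Phex were found, 3 of the 25918 gene names, and Mepe is not analysed here.

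The libraries were made from RNA of BALB/c mice. From the interparietal bone, a flat bone at the back of the skull roof, there were 3 control libraries, 3 from day 2 and 3 from day 4 after ischemic injury. From the brain cortex there were 3 control libraries, 3 from day 2 and 3 from day 6, and these serve only as a reference. No genotype other than the strain, no age, no sex and no treatment of the controls is used here, and the labels do not say how the ischemia was made. They also do not say that replicates came from separate animals, so every p-value below measures the spread between these libraries, which may be technical. Counts assigned to genes ranged from 13142770 to 15445503 per skull library and from 13005050 to 27654269 per cortex library.

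Sost encodes sclerostin, a protein that osteocytes secrete and that binds the receptors LRP5 and LRP6, with LRP4 as a partner, so that Wnt signals to osteoblasts are blocked. Dmp1 encodes dentin matrix protein 1, an acidic phosphoprotein that helps mineral form in the matrix. Phex encodes a membrane-bound endopeptidase, and loss of either Dmp1 or Phex raises the phosphate-lowering hormone FGF23 in bone. Osteocytes start to make Dmp1 and Phex while they are being buried, and Sost mainly once they are mature, which makes Sost a marker of the later state in bone biology.

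The 3 genes lie on different chromosomes (GENCODE M21, build mm10). Sost (ENSMUSG00000001494.6) spans chr11:101962458-101967015 on the minus strand, Dmp1 (ENSMUSG00000029307.7) spans chr5:104202613-104214102 on the plus strand, and Phex (ENSMUSG00000057457.11) spans chrX:157162075-157415312 on the minus strand. The union of annotated exons is 2066 bases for Sost, 2764 for Dmp1 and 6291 for Phex, and levels of different genes are compared below only after division by these lengths. No other gene of the counts table overlaps any of the 3 in that annotation.

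The 150 bases before a transcription start of each gene are shown as a description, and a part of these bases in the changes was not tested. They are from RefSeq on GRCm38.p6, written in the direction of transcription, and all 3 genes were found in that collection. Capitals mark TTTAAA and ATTGG, the reverse complement of CCAAT. The windows are chr11:101967016-101967165 (minus strand) for Sost, chr5:104202467-104202616 (plus strand) for Dmp1 and chrX:157415287-157415436 (minus strand) for Phex.
Sost: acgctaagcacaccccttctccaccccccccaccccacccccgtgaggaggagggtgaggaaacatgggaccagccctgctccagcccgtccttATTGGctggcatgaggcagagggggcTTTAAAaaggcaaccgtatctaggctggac
Dmp1: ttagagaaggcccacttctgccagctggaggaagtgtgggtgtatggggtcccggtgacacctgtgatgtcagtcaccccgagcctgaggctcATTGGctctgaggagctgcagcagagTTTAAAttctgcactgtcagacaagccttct
Phex: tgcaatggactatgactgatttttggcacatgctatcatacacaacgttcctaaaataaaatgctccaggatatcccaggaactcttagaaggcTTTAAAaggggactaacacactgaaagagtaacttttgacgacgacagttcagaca

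TTTAAA stands 30 to 25 bases before the RefSeq start in Sost, 31 to 26 in Dmp1 and 56 to 51 in Phex. The Dmp1 window (to 104202616) and the Phex window (from 157415287) reach into the genes as annotated. Those genes start at 104202613 and 157415312, so these distances depend on the start used and are not a difference between the genes. CCAAT on the opposite strand stands 56 to 52 bases before the start in Sost and 57 to 53 in Dmp1, and is not in the Phex window. Of 32851 promoter windows of this length, 6.75% held TTTAAA and 24.5% held CCAAT on either strand. The other motifs searched on both strands had no match in these 3 windows: CACGTG (in 4.30% of all windows), TGTGGT (8.40%), TATAAA (7.57%), TGACGTCA (1.36%) and a longer MEF2 motif (0.067%). The marked matches do not overlap each other. The 7 motifs were chosen after the sequences were seen, and a match is a description, not a binding site. Dmp1 has 2 RefSeq starts, and the one beside the annotated gene start is shown. The window of the other holds CACGTG and CCAAT on the opposite strand, but not TTTAAA.

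In the control skull, Dmp1 was the most abundant of the 3 per length and Sost the least. Dmp1 averaged 22.8 ± 2.28 CPM per kb (read counts scaled to library size, per kilobase of exon; SD, n = 3), Phex 5.09 ± 1.82 and Sost 1.16 ± 0.337. The same order held in each of the 9 skull libraries. At day 2 the means were 72.7 CPM per kb for Dmp1, 8.52 for Phex and 0.291 for Sost, and at day 4 they were 46.4, 22.4 and 3.79.

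All 3 genes were far lower in cortex. In the control cortex libraries Dmp1 stood at 1.68, 1.15 and 1.87 CPM (31 to 45 counts) and Phex at 0.838, 1.49 and 1.87 CPM (20 to 45 counts). Sost had 1 count in 1 control library and 0 in the other two. Skull controls exceeded cortex controls by 5.36 ± 0.20 on the log2 scale for Dmp1 (SE, adjusted p = 2.274e-06) and by 4.54 ± 0.40 for Phex (adjusted p = 7.982e-05), by edgeR's quasi-likelihood test with Benjamini-Hochberg adjustment. Of all genes tested between these tissues, 36.4% were called higher in skull. For Sost the ratio of depth-scaled counts was 183 (95% interval 32.1 to 7294, counting error only), from 106 counts in skull and 1 in cortex. It passed the filter on low counts only through the skull libraries, so this ratio is a description.

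**Figure D1:**
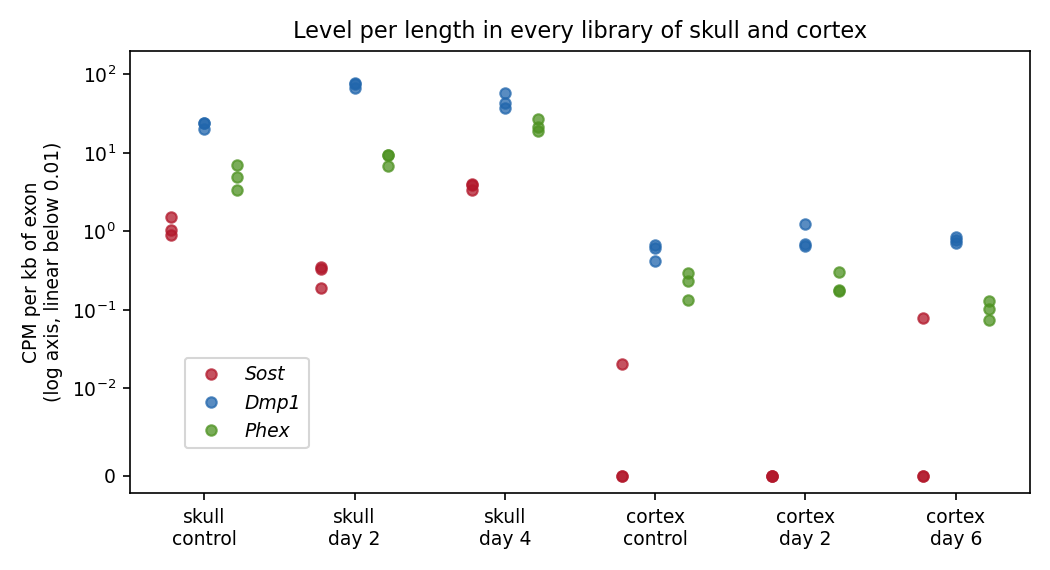
Level of Sost, Dmp1 and Phex in each of the 18 libraries, in CPM per kb of exon on a log axis that is linear below 0.01. Each point is 1 library. In all 9 skull libraries Dmp1 is highest and Sost lowest, and in cortex Sost is at 0 in 7 of 9 libraries.

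At day 2 the 3 genes parted: Sost fell, Dmp1 rose, and Phex did not pass the test. Sost stood at 2.15, 3.17 and 1.84 CPM in the control libraries (32, 47 and 27 counts) and at 0.678, 0.733 and 0.395 CPM at day 2 (10, 11 and 6 counts). Every day 2 library was below every control library. The fitted change was -1.98 ± 0.32 on the log2 scale, 3.93-fold lower (adjusted p = 0.00162, edgeR quasi-likelihood with Benjamini-Hochberg adjustment). The few Sost reads of day 2 make this fold imprecise, and the gene passed the filter through the control and day 4 libraries.

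Dmp1 moved the other way. It stood at 66.6, 55.7 and 66.5 CPM in the controls and at 212, 184 and 207 CPM at day 2, so the lowest day 2 library was far above the highest control. The rise was 1.68 ± 0.15 on the log2 scale, 3.19-fold (adjusted p = 1.305e-04, edgeR).

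Phex stood at 43.8, 21.0 and 31.1 CPM in the controls and at 58.4, 59.8 and 42.5 CPM at day 2. The lowest day 2 library was just below the highest control, replicate 1, which holds the most Phex of the controls. The fitted change of 0.74 ± 0.27 did not pass (edgeR adjusted p = 0.0616). Without control replicate 1 it was 1.03 and passed (adjusted p = 0.0151), and it also passed with DESeq2 (adjusted p = 0.0122) and with limma voom (adjusted p = 0.0436).

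Thus 2 of the 3 genes were called at day 2, in opposite directions, where 34.4% of all 17450 genes tested were called, 17.8% higher and 16.6% lower, and 47.7% had no overlap between the groups. Among those genes 354 had a log2 change at least as high as that of Dmp1 and 731 one at least as low as that of Sost. In bulk tissue, fewer cells of a type and less RNA per cell cannot be told apart, and this holds for each change given here.

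By day 4 all 3 genes were above control. Sost stood at 6.99, 8.41 and 8.11 CPM (109, 102 and 104 counts), each above all controls. It was 1.71 ± 0.28 higher on the log2 scale, or 3.27-fold (edgeR adjusted p = 0.0115). The 3 day 4 libraries were close together, 7.83 ± 0.746 CPM (SD, n = 3).

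Dmp1 stood at 120, 160 and 104 CPM at day 4, between the controls and the day 2 libraries with no overlap on either side. The change from control was 1.03 ± 0.15, or 2.03-fold (edgeR adjusted p = 0.00881). Phex stood at 119, 171 and 133 CPM, and each of these libraries was above every control and day 2 library. Its fitted rise was 2.14 ± 0.27, or 4.39-fold (edgeR adjusted p = 0.0085).

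Of all genes tested, 5.83% were called higher at day 4 than in controls, 4.79% lower and 10.6% in either direction, and 31.1% had no overlap. There were 58 genes with a change at least as high as that of Phex, 122 for Sost and 480 for Dmp1, each count including the gene itself. The calls changed without control replicate 3: then 10 genes in all were called, and Sost (1.55, adjusted p = 0.0648), Dmp1 (1.06, adjusted p = 0.0542) and Phex (2.11, adjusted p = 0.0542) were not among them. Sost was also not called without day 4 replicate 3 (log2 change 1.69, adjusted p = 0.0514).

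**Figure D2:**
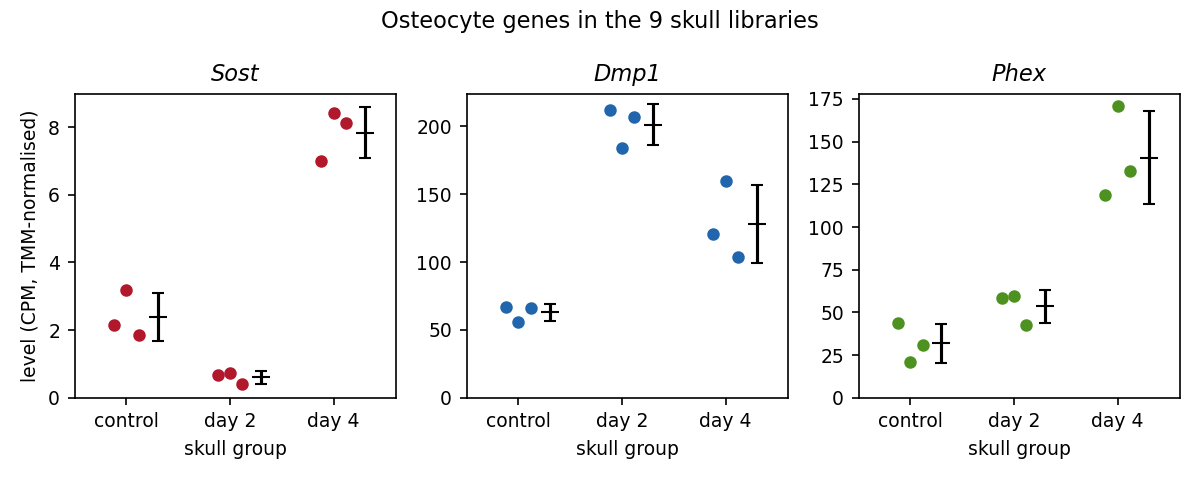
Level of each gene in the 9 skull libraries, in CPM scaled by TMM factors. Points are libraries, and the bars beside them give the mean and SD of 3. Sost is lowest at day 2 and highest at day 4, Dmp1 is highest at day 2, and Phex is highest at day 4.

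Between day 2 and day 4, Sost had one of the steepest rises in the table. It was 12.8-fold higher at day 4 (log2 change 3.68 ± 0.32, edgeR adjusted p = 1.686e-04), and 5 of the 17450 genes, Sost included, had a change at least as high. This fold and this rank are imprecise, because the day 2 libraries held only 10, 11 and 6 Sost counts. Sost passed the filter through the control and day 4 libraries. Phex rose 2.63-fold (1.39 ± 0.27, adjusted p = 0.00875), with no overlap between the groups. Dmp1 fell by 0.65 ± 0.15 on the log2 scale (adjusted p = 0.0139), its day 4 libraries all below its day 2 libraries.

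All 3 genes were called in that comparison, where 10.6% of all genes were called higher, 11.1% lower and 21.6% in either direction, and 42.6% had no overlap. The fall of Dmp1 was not called without day 2 replicate 3 (-0.62, adjusted p = 0.0504) or without day 4 replicate 1 (-0.61, adjusted p = 0.0572). The 3 skull comparisons share libraries: each group enters a pair of them.

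Ratios of one gene to another within a library do not depend on how libraries are scaled. Per length, Dmp1 exceeded Sost 23.2, 13.1 and 27.0 times in the controls, 234, 187 and 392 times at day 2 and 12.9, 14.2 and 9.60 times at day 4. The day 2 libraries stood apart from the other 6, while the control and day 4 libraries overlapped.

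Phex exceeded Sost 6.69, 2.17 and 5.55 times in the controls, 28.3, 26.8 and 35.4 times at day 2 and 5.57, 6.67 and 5.38 times at day 4. Again day 2 stood apart, and control replicate 2 had the lowest ratio. The log2 ratio was 2.11 ± 0.87 in controls and 2.55 ± 0.17 at day 4 (SD, n = 3), a difference of 0.44 that is smaller than the spread of the controls.

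Phex per Dmp1 was 0.289, 0.166 and 0.206 in the controls, 0.121, 0.143 and 0.0901 at day 2 and 0.433, 0.469 and 0.561 at day 4. Here none of the 3 groups overlapped another: the ratio was lowest at day 2 and highest at day 4. Over the 9 group comparisons of these 3 ratios, 7 had no overlap and an exact two-sided permutation p of 0.1, the smallest that 3 libraries against 3 allow, or 0.129 after Benjamini-Hochberg adjustment. The other two were Dmp1 per Sost (p = 0.2) and Phex per Sost (p = 0.7), both at day 4 against control (exact permutation test). The design cannot bring such a single-value test below 0.05.

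**Figure D3:**
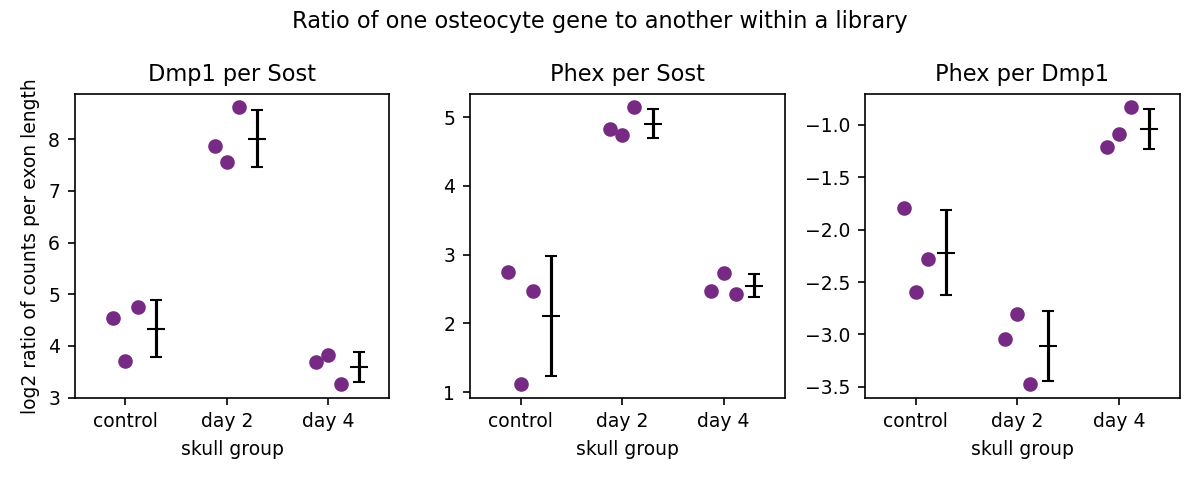
Log2 ratio of counts per exon length of one gene to another, within each of the 9 skull libraries. Points are libraries and bars are mean and SD of 3. The day 2 libraries are separate from the others in all 3 panels, and Phex per Dmp1 separates all 3 groups.

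Over the 9 skull libraries, log2 levels of the 3 genes correlated weakly with each other. Pearson's r was 0.575 for Sost with Phex, 0.465 for Dmp1 with Phex and -0.404 for Sost with Dmp1. These are descriptions over libraries that fall into 3 groups.

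The genes whose log2 level was most like that of each member over the same 9 libraries were taken from 12706 genes that averaged 5 CPM or more. For Sost they were Tspan18 (r = 0.991), Man1c1 (0.984), Fbln5 (0.979), Tbc1d9b (0.977) and Pld4 (0.976). Their changes were far smaller than that of Sost: Tspan18 averaged 43.3 CPM in controls, 33.6 at day 2 and 53.9 at day 4, and Pld4 32.5, 21.5 and 52.0. For Dmp1 they were Cemip (0.987), Sap30 (0.985), Gja1 (0.983), Zdhhc6 (0.982) and Calr (0.982). Gja1, which encodes the gap junction protein connexin 43 that links osteocytes to each other, averaged 488 CPM in controls, 982 at day 2 and 744 at day 4. For Phex they were Inppl1 (0.987), Mpzl1 (0.985), Thbs1 (0.982), Clec4a3 (0.973) and Ifngr1 (0.972). Thbs1, the matrix protein thrombospondin 1, averaged 295, 379 and 645 CPM.

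Other genes known from osteocytes form a list of 11, of which 10 passed the filter. This list and those below were chosen with earlier results of these data known. Counts set beside the share of all genes are therefore descriptions. In bulk bone, reads of these genes are not assigned to a cell type. At day 2, 6 of the 10 rose and 1 fell, with a median log2 change of 1.01 against -0.01 over all genes, of which 17.8% were called higher and 16.6% lower. The risers were Mmp13 and Tnfsf11, with Pdpn, Tnfrsf11b, Ackr3 and Gja1. Mmp13, a collagenase, went from 1016, 1326 and 1104 CPM to 12870, 11110 and 17330, a log2 change of 3.58 ± 0.24. Tnfsf11, which encodes RANKL, the signal for osteoclast formation, went from 5.11, 10.1 and 5.60 CPM to 65.1, 62.1 and 80.7, a change of 3.32 ± 0.33. Both were higher in all 3 day 2 libraries by a wide margin. Gja1 and the chemokine receptor gene Ackr3 each changed by 1.01.

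Fbln7, the gene of the matrix protein fibulin 7, was the one gene of that list that fell with Sost at day 2. It stood at 31.9, 31.9 and 31.1 CPM in controls, at 11.3 to 12.3 at day 2 and back at 33.8, 32.4 and 34.5 at day 4. Its day 2 change was -1.41 ± 0.09 (edgeR adjusted p = 3.253e-05), and it rose again from day 2 to day 4 (edgeR adjusted p = 3.642e-05). Unlike Sost, it did not exceed its control level by a called amount at day 4 (log2 change 0.09, adjusted p = 0.561).

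At day 4 against control, 4 of these 10 genes rose and none fell, with a median of 0.49 against 0.02 over all genes, of which 5.83% were called higher. They were Irx5, a homeobox gene (0.99 ± 0.17), Gja1 (0.61 ± 0.11), Mmp13 (1.13 ± 0.22) and Dkk1 (1.37 ± 0.26, edgeR adjusted p = 0.0162). Dkk1 encodes a second secreted inhibitor of LRP5 and LRP6. It stood at 8.07, 6.62 and 7.10 CPM in controls, at 7.53, 8.33 and 4.67 at day 2 and at 14.9, 25.2 and 16.3 at day 4. It was thus higher at day 4, as Sost was, but its control and day 2 libraries overlapped. From day 2 to day 4, Fbln7 and Dkk1 rose and 6 of the 10 fell, among them Tnfsf11 (-2.72 ± 0.32), Mmp13 (-2.45) and Tnfrsf11b (-1.68 ± 0.17). In that comparison 10.6% of all genes were called higher and 11.1% lower. Fgf23, the hormone gene downstream of Dmp1 and Phex, had 0 to 7 counts per skull library and did not pass the filter.

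Genes of mineralization and phosphate handling form a list of 15, of which 13 passed the filter. At day 2, 5 rose and none fell (median 0.53 against -0.01 over all genes, of which 17.8% were called higher). At day 4, 4 rose and none fell (median 0.49 against 0.02, with 5.83% of all genes called higher). From day 2 to day 4, 5 fell and none rose (median -0.12 against 0.02, with 11.1% of all genes called lower). Ibsp and Spp1, which encode bone sialoprotein and osteopontin, lie on chromosome 5 in the same cluster as Dmp1, in the order Dspp, Dmp1, Ibsp, Mepe, Spp1. Ibsp stood at 615, 729 and 653 CPM in the control libraries, at 8533, 7651 and 7360 on day 2, and at 1015, 3024 and 2072 on day 4. Spp1 stood at 2080, 1405 and 1824 CPM, then at 7960, 7204 and 12310, and then at 2878, 3774 and 2974. Like Dmp1, both were highest at day 2 and between the other groups at day 4, with no overlap. The day 2 changes were 3.56 ± 0.36 for Ibsp and 2.37 ± 0.23 for Spp1, and the day 4 changes were 1.61 ± 0.33 and 0.86 ± 0.22. Dspp had at most 2 counts in any skull library.

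Galnt3, whose enzyme adds the sugar that shields FGF23 from cleavage, rose at day 2 (1.46 ± 0.20) and at day 4 (1.33 ± 0.20). Enpp1 (0.83 ± 0.15), which makes the mineralization inhibitor pyrophosphate, and the phosphate carrier gene Slc20a1 (0.59 ± 0.09) rose at day 2 and fell from day 2 to day 4. Phospho1, a phosphatase of matrix vesicles, rose at day 4 (1.28 ± 0.32). Alpl, the alkaline phosphatase gene, was 0.49 higher at day 4 and missed the threshold (edgeR adjusted p = 0.0719).

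The day 4 calls of these named genes share the dependence of the members on single libraries. Of the 13 genes named by rule and called at day 4 against control, the members included, 0 were called without control replicate 3 (adjusted p 0.0542 to 0.127), 4 without day 4 replicate 3 and 9 without day 4 replicate 2. For the day 2 comparison, 17 to 19 of 19 remained called whichever library was left out.

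**Figure D4:**
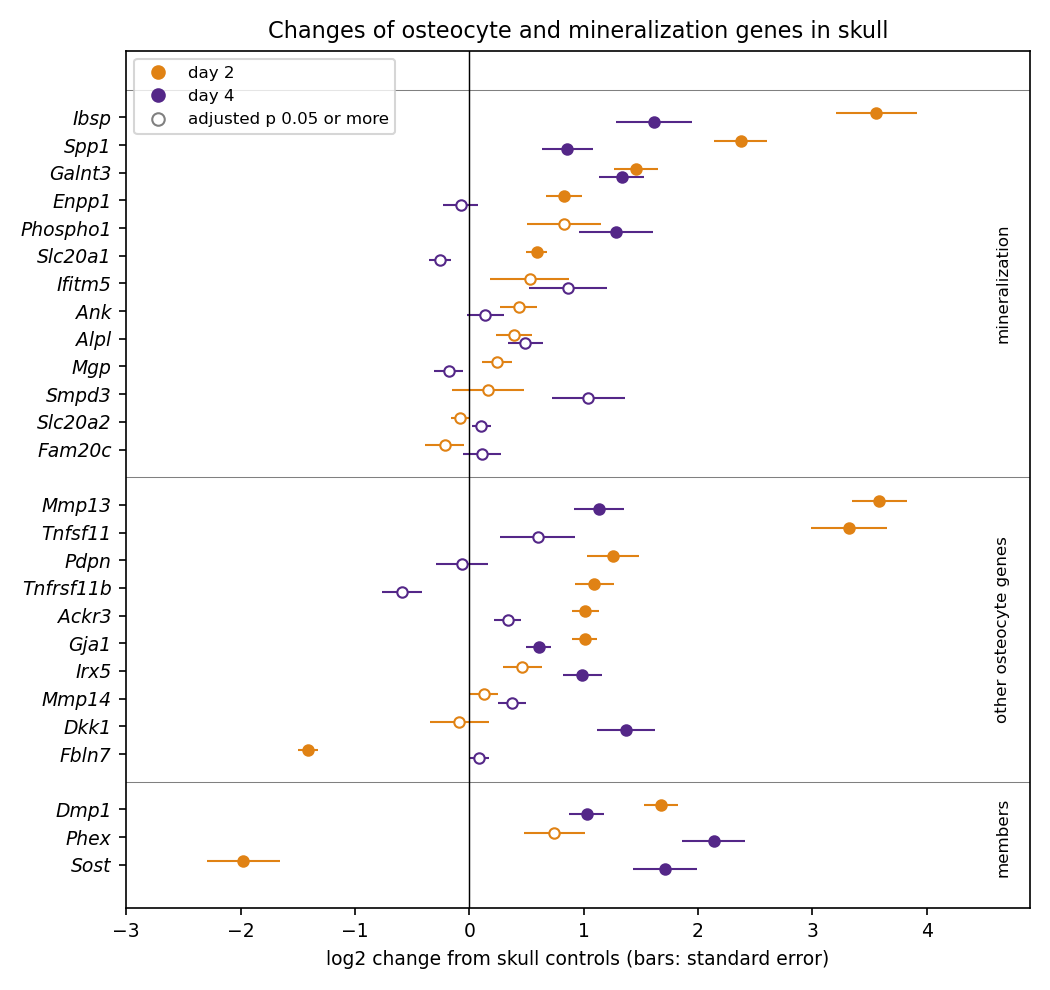
Log2 change from skull controls at day 2 (orange) and day 4 (purple) with its standard error, for the 3 members, 10 other osteocyte genes and 13 mineralization genes that passed the filter. Filled points passed the test at an adjusted p under 0.05. Sost and Fbln7 are the filled points left of 0.

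The receptors of sclerostin and the Wnt pathway around them form a list of 15, of which 14 passed the filter. At day 2, 3 rose and 4 fell (median 0.01), where 17.8% of all genes were called higher and 16.6% lower. At day 4, 0 rose and 1 fell (median 0.01), where 4.79% of all genes were called lower. Lrp5 stood at 160, 104 and 137 CPM in controls, 81.2, 91.7 and 79.2 at day 2 and 162, 165 and 186 at day 4. It fell at day 2 by 0.67 ± 0.14 and rose from day 2 to day 4 by 1.02 ± 0.14. It thus fell and rose between these groups as Sost did, by less. Lrp6 changed by -0.23 at day 2 and was not called (edgeR adjusted p = 0.0676), but was with DESeq2 (adjusted p = 0.0366), with upper quartile factors (0.0384) and without control replicate 2 (0.0154). Lrp4 changed by -0.05 at day 2 (adjusted p = 0.735) and by 0.31 from day 2 to day 4 (adjusted p = 0.0781), the latter called when those groups were fitted alone (adjusted p = 0.037).

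The other genes of that list that fell at day 2 were Nkd1 (-0.97 ± 0.18), Axin2 (-0.46 ± 0.14) and Znrf3 (-0.43 ± 0.13), which all encode feedback inhibitors of Wnt signalling, as does Nkd2, which rose (0.42 ± 0.10). Axin2, a common transcriptional readout of the pathway, also fell at day 4 (-0.65 ± 0.14, edgeR adjusted p = 0.023), with controls at 18.2, 15.1 and 17.2 CPM and day 4 at 12.4, 10.3 and 9.43. Its day 4 call was lost in 4 of the 6 fits that left out 1 library (adjusted p 0.0541 to 0.0933). Notum, a secreted Wnt deacylase, rose at day 2 (1.21 ± 0.35) from a low level, a call lost in 4 such fits (adjusted p 0.0593 to 0.0953).

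Sostdc1, the closest relative of Sost in sequence, varied widely between the libraries after injury. It stood at 0.538, 0.675 and 0.546 CPM in controls, at 2.31, 105 and 34.0 at day 2 and at 57.6, 31.2 and 8.57 at day 4. It passed the filter only through libraries after injury, so its change is given as a description. The day 2 value of 6.31 ± 1.65, counted above as a rise (edgeR adjusted p = 0.0266), was not called with the replicate block (adjusted p = 0.0659), with limma voom (adjusted p = 0.288) or when any one of the 3 controls was left out (adjusted p 0.0864 to 0.0945). Markers of meninges and choroid plexus, 8 genes of 8 in the table, summed to between 761 and 1379 CPM in controls, between 236 and 8215 on day 2 and between 608 and 3073 on day 4. This sum joins genes that moved in opposite directions. At day 2, 1 of the 8 rose and 3 fell, where 17.8% of all genes were called higher and 16.6% lower. Ttr averaged 3.635 CPM in controls and 2983 ± 3914 at day 2 (SD, n = 3), while Ptgds averaged 996 and 156. Day 2 replicate 2 held the highest value of both this sum and Sostdc1, and day 2 replicate 1 the lowest day 2 value of both; their part in the Sostdc1 result was not tested.

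Genes of proteins known to regulate Sost form a list of 12, all of which passed the filter. At day 2, 0 rose and 2 fell (median -0.10), where 16.6% of all genes were called lower. At day 4, 1 rose and 0 fell (median 0.06), and from day 2 to day 4, 2 rose and 0 fell (median 0.15), where 5.83% and 10.6% of all genes were called higher. The day 2 share is near that of all genes. Hdac5, a histone deacetylase that represses Sost through MEF2 factors, fell at day 2, from 123 to 138 CPM in controls to 98.4, 96.8 and 80.2 (-0.51 ± 0.09, edgeR adjusted p = 0.00272). It stood at 124, 129 and 133 CPM at day 4. Mef2d also fell at day 2 (-0.35 ± 0.09). Sp7, which encodes the osteoblast factor osterix, rose at day 4 (0.85 ± 0.19, adjusted p = 0.0276), a call lost in 4 of 6 fits with 1 library left out (adjusted p 0.0574 to 0.106). Pth1r, the parathyroid hormone receptor gene, was 0.40 higher at day 2 (adjusted p = 0.0852) and 0.51 higher at day 4 (adjusted p = 0.0737).

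Markers of other cell types that the bone sample could hold were summed in each skull library. For osteoblasts, 12 of 13 list genes were in the table and none was at 0. Their sum lay between 45400 and 91110 CPM in controls, between 65650 and 85690 on day 2 and between 106900 and 153900 on day 4, mostly from the collagen genes Col1a2 and Col1a1. At day 4 against control, 3 of the 12 rose and none fell (median 0.78 against 0.02 over all genes, of which 5.83% were called higher). At day 2, 1 of the 12 rose and 2 fell (median 0.32 against -0.01). Of all genes, 17.8% were called higher and 16.6% lower at day 2.

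The members were therefore also fitted relative to the osteoblast list, with the mean log2 CPM of its genes as the scaling of each library. That scaling shifted the median of all genes by -0.30 at day 2, -0.76 at day 4 and -0.46 from day 2 to day 4. The list did not move as one at day 2. Ibsp changed by 3.56 and Bglap2 by -2.49, and the other genes of the list by between -0.51 and 0.62. The day 2 scaling therefore leans on single genes and is not a measure of osteoblast content. At day 4 against control, Phex still rose (1.42, adjusted p = 8.099e-05), whereas Sost (0.90, adjusted p = 0.0675) and Dmp1 (0.28, adjusted p = 0.319) were not called. The Phex change was smaller than with TMM scaling (2.14), although its adjusted p was lower (edgeR adjusted p = 0.0085 with TMM). This scaling shifted all genes, so its adjusted p-values and calls are not comparable with those under TMM. At day 2 the change of Sost was -2.35 and that of Dmp1 1.40, both called, and from day 2 to day 4 Sost changed by 3.24, Phex by 0.93 and Dmp1 by -1.12, all called. Ibsp, Alpl, Ifitm5, Sp7, Runx2 and Pth1r stand both in this list and in a list above.

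**Figure D5:**
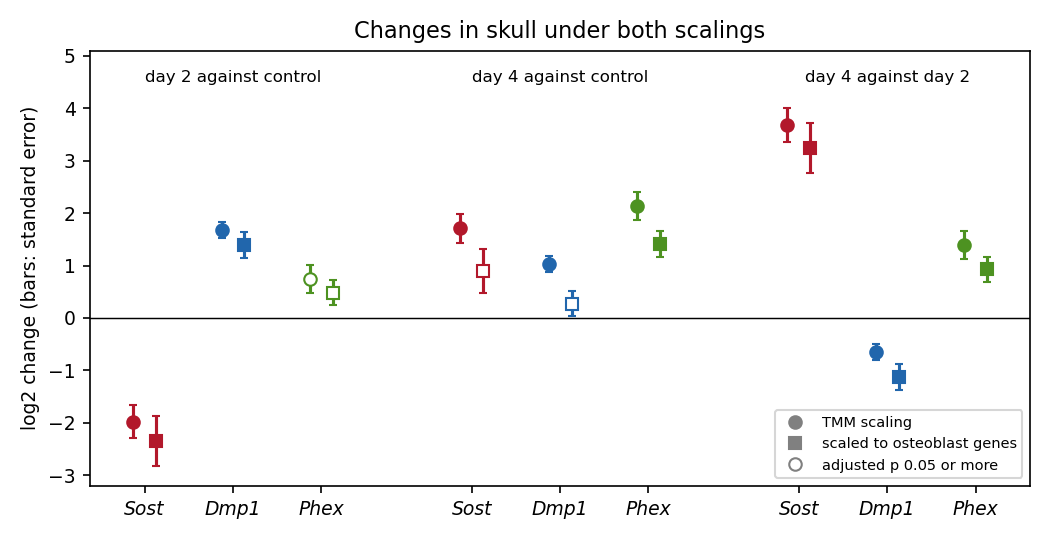
Log2 change of each member with its standard error in the 3 skull comparisons, with TMM scaling (circles) and relative to the osteoblast list (squares). Open points have an adjusted p of 0.05 or more. No member changes direction, and at day 4 against control Sost and Dmp1 pass only with TMM. Adjusted p-values are not comparable between the scalings.

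Of the other cell-type lists, no gene in the table was at 0 in all skull libraries. Neutrophil markers (10 of 10 in the table) summed to between 1353 and 2446 CPM in controls, between 2546 and 2860 on day 2 and between 4471 and 8534 on day 4. Of these 10 genes, 9 rose at day 4 against control, where 5.83% of all genes were called higher. Another count of 9 rose from day 2 to day 4, where 10.6% of all genes were called higher, and 0 were called at day 2. Cartilage markers (8 of 8) summed to 788 to 1595, 562 to 952 and 2427 to 3197 CPM, mostly from Col11a2. At day 4 against control 2 of these 8 genes, Col11a2 and Col10a1, rose and none fell, where 5.83% of all genes were called higher. Col10a1 averaged 0.158 CPM in controls and 2.75 at day 4. It passed the filter only through libraries after injury, so its rise is a description. Col2a1 changed by 0.12 (edgeR adjusted p = 0.877). Osteoclast markers (10 of 10) summed to 1718 to 1787, 2316 to 3333 and 2079 to 4013 CPM. Of these, 5 rose at day 2 and 2 at day 4, and none fell, where 17.8% and 5.83% of all genes were called higher. Sums of periosteal and fibroblast markers (10 of 10) overlapped in all groups, between 20160 and 30140 CPM, mostly from Col3a1. Single genes of this list did change: at day 2, 2 of the 10 rose and 4 fell. Of all genes, 17.8% were called higher and 16.6% lower in that comparison.

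The sum of brain markers (8 of 8) was highest in the control skull, at 560 to 773 CPM, against 115 to 267 at day 2 and 174 to 355 at day 4. Of these 8 genes, 5 fell at day 2 and 4 at day 4, and none rose. The shares of all genes called lower were 16.6% and 4.79%. This sum does not speak for each gene, as Mbp averaged 118 CPM in controls and 110 at day 4. Skeletal muscle markers (7 of 8 in the table) ranged from 682 to 3573, 9.02 to 841 and 64.5 to 1403 CPM, and red cell markers (8 of 10) from 15510 to 20220, 1723 to 10910 and 6470 to 8687 CPM. The red cell sum came mostly from Hbb-bs and Hba-a1 and does not speak for each gene of that list. From day 2 to day 4, 3 of its 8 genes rose and none fell, where 10.6% of all genes were called higher. B cell markers (7 of 8) ranged from 114 to 154, 54.7 to 61.4 and 95.6 to 162 CPM. Of these 7 genes, 5 fell and none rose at day 2, where 16.6% of all genes were called lower. The part of these cell types in the changes of Sost, Dmp1 and Phex was not tested.

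In cortex, neither Dmp1 nor Phex was called after injury. Dmp1 stood at 1.83, 3.43 and 1.89 CPM at day 2 (log2 change 0.61 ± 0.35, edgeR adjusted p = 0.232) and at 1.96, 2.38 and 2.18 at day 6 (0.47 ± 0.35, adjusted p = 0.455). Its day 6 libraries were all above the cortex controls. Phex stood at 1.11, 1.13 and 1.89 CPM at day 2 (-0.03 ± 0.44, adjusted p = 0.973), and leaving out single libraries moved that value between -0.32 and 0.23. At day 6 it stood at 0.463, 0.824 and 0.646 CPM, all below the controls (-1.11 ± 0.47, unadjusted p = 0.0332, adjusted p = 0.161, edgeR). The background of called genes was 24.7% at day 2 and 10.3% at day 6 in cortex, and 30.9% of genes had no overlap at day 6. Sost had 0 counts in all 3 day 2 libraries and at most 2 counts in any day 6 library.

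Ordered by level per length over the 6 groups, each gene had its 3 skull groups above its 3 cortex groups. For Sost the order was day 4, control, day 2, for Dmp1 day 2, day 4, control, and for Phex day 4, day 2, control. Neighbours in these orders did not overlap, except Phex at day 2 and in controls. Within cortex, the library values of each gene overlapped between groups, except those of control and day 6 for Dmp1 and Phex and those of day 2 and day 6 for Phex.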

How the data were processed

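Poly(A)-selected RNA of 18 libraries (6 groups of 3) was read as Illumina pairs of 150 bases, per the labels' protocols. The authors deposited raw counts per gene; HISAT2 2.1.0 and mm10 appear in the submitters' processing notes. How reads were counted, on which annotation and with which strand rule is not given in the sources used here. After 865 identical surplus lines were removed, 25918 gene names remained. Each tissue was fitted over its 9 libraries in R 4.3.3 with edgeR 4.0.16 (filterByExpr by group, TMM, robust quasi-likelihood test, two-sided, Benjamini-Hochberg over all genes, called below 0.05), and controls of both tissues were compared over 6 libraries. The filter asked for about 0.677 CPM in 3 skull libraries. DESeq2 1.42.0, limma 3.58.1 voom, other scalings and filters, a replicate block and fits without single libraries were alternatives. In simulated day 2 data with 200 genes changed, 57.7% of 2-fold and 82.1% of 4-fold changes in tested genes were recovered (17026 and 17015 genes). False calls made up 3.45% and 6.4% of the calls. The real day 2 comparison called 6007 genes, so these shares may not carry over to it. Log2 levels used a prior count of 2.

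The members and the gene lists were chosen with earlier results of these data known. Named genes were the members, up to 5 genes per pathway list and comparison with the smallest p (plus Lrp4, Lrp5 and Lrp6), the 5 genes per member with the highest correlation, and the 2 most abundant genes of a cell-type list. Pdpn, Dspp, Fgf23, Znrf3, Col2a1, Bglap2, the day 2 value of Axin2 and the day 4 value of Fbln7 fall outside that rule and were chosen after their values were seen. The same holds for Col10a1, the day 2 call of Tnfrsf11b, and the day 2 values of Dkk1 with its rise from day 2 to day 4. Some genes of the cell-type lists are not analysed here.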

Additional observations from a re-analysis of the deposited data

How the results depend on the processing

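All 3 members kept their direction in each skull comparison under every alternative run. Phex at day 2 (log2 change 0.74, not called) was called with DESeq2 (0.73) and limma voom (0.79), and ranged from 0.52 to 1.03 with single libraries left out. At day 4 against control the ranges with single libraries left out were 1.55 to 1.95 for Sost, 0.84 to 1.16 for Dmp1 and 1.89 to 2.43 for Phex, and relative to the osteoblast list Sost (0.90) and Dmp1 (0.28) lost their calls. Dmp1 from day 2 to day 4 ranged from -0.84 to -0.52. The 1853 genes called at day 4 became 2834 with DESeq2, 1004 when the compared groups were fitted alone and 10 to 2537 with 1 library left out. The 3772 genes called from day 2 to day 4 became 2260 to 3057, and the 1873 at day 6 in cortex 1005 to 2091. The cause was not tested.

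The correlation between deviations of same-numbered replicates ran from -0.46 to 0.16 in skull and from -0.04 to 0.23 in cortex. These values do not settle whether the numbers pair the libraries, and the main fits used no replicate block. With the replicate block, 765 genes were called at day 4 against control, and no member's call changed in skull. Each skull library correlated best with its own number in 2 of 9 cases, and each cortex library in 6 of 9. Phex in cortex at day 2 turned to 0.0026 under the block and ranged from -0.32 to 0.23 with single libraries left out. Of the other named genes, Lrp4 at day 2 ranged from -0.161 to 0.0244 and Lrp6 at day 4 from -0.125 to 0.0315 with single libraries left out. Over 975 refits of those genes, 875 kept direction and call, 77 lost a call, 20 gained one and 3 changed sign. Depth limits Sost most, with 6 to 11 counts per library at day 2.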
